A study of Mus musculus with 6 samples.

Results

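The genes described here encode the nuclear parts of mitochondrial respiratory complexes II to V and of cytochrome c, the carrier between complexes III and IV. They were chosen by name: probes with 1 gene symbol that was Sdha to Sdhd, began with Uqc or with Cox4 to Cox8, began with Atp5, or was Cycs or Cyc1. This gave 40 probes for 38 genes, of 33012 probes on the array, of which 14411 carry 1 symbol for 13840 genes. Complex II was represented by 4 genes, complex III by 7 subunits and 2 assembly factors, complex IV by 12 genes, complex V (the ATP synthase) by 12 genes and cytochrome c by 1.

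Each array measured 1 oocyte. The 3 Ago2-deficient oocytes were mature, and came from females that carried the floxed Ago2 allele on both chromosomes together with a Cre transgene driven by the promoter of the zona pellucida gene Zp3, which acts in the growing oocyte. The 3 control oocytes were wild-type and at the germinal vesicle (GV) stage. Their labels say that they were taken from oviducts of adult females and freed of cumulus cells by hyaluronidase. The paper describes such a collection, from adult females, for ovulated metaphase II oocytes and gives none for GV oocytes. The GV stage is therefore given as labelled. Genotype and stage differ together between the groups and cannot be told apart. No label states that the oocytes are from different animals, and p-values therefore cover only the spread between these single cells.

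In the respiratory chain, complex II passes electrons from succinate to ubiquinone, complex III passes them from ubiquinol to cytochrome c, and complex IV passes them from cytochrome c to oxygen. Complexes III and IV pump protons as they do so, and the ATP synthase makes ATP as protons flow back through its ring. The catalytic subunits of complex IV are encoded in mitochondrial DNA, and its nuclear subunits are accessory. Mouse oocytes take up pyruvate from the cumulus cells around them and depend on this chain for ATP.

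A probe was taken as detected where its signal-to-noise ratio reached 3. Detected probes numbered 4620 to 6798 on an Ago2-deficient array and 10650 to 11334 on a GV array, and undetected probes had a median signal of 145 to 231 on the first and 70.8 to 83.3 on the second. The part of this difference between the arrays in the results was not tested. Of 12 oocyte markers on the array, all were detected in every GV oocyte, while Zp2, Figla and Kit were detected in no Ago2-deficient oocyte. Of 14 markers of cumulus and granulosa cells, 2 to 5 were detected in an Ago2-deficient and 4 to 6 in a GV oocyte, with a log2 summed signal of 13.82 to 15.30 and 12.27 to 12.87. Among these, Amh, Fshr, Has2 and Tnfaip6 were detected on no array. Ereg and Btc, ligands of the epidermal growth factor receptor, were detected in all 3 Ago2-deficient and no GV oocytes (at least 24.4-fold and 71.2-fold higher), and Inha and Hsd17b1 in all 3 GV and no Ago2-deficient oocytes. The part of such cells in the results was not tested. Ago2 itself reached the limit on a single GV array (1 of 6), but no source used here places its probe inside or outside the deleted exons, so the probe checks nothing about genotype.

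The upstream sequences of 6 members are shown because their genes were called in opposite directions on the quantile-normalized values while some share the same short motif. Of the 38 genes, 31 have a promoter in the RefSeq table of build GRCm38.p6, and the 250 bases before each start were searched on both strands. The motifs were the palindromic NRF-1 motif with 1 free base, CCGGAAG of the ETS factor GABPA and AAGATGGC of YY1, factors known to act on respiratory genes. The NRF-1 letters were found in 5 of the 31 genes (16.1%), against 4.23% of the 27025 genes in the table. The ETS letters were also found in 5 (16.1%, against 7.83%), and the YY1 letters in 1 (3.23%, against 1.83%). Each line gives the 120 bases before the start, 5′ to 3′ on the gene's strand, with motif letters on either strand in capitals. Atp5j has 2 starts listed, and the start with more motifs is shown. No motif was found before its other start.
Sdhd, lower, chr9:50603850-50603969, minus strand: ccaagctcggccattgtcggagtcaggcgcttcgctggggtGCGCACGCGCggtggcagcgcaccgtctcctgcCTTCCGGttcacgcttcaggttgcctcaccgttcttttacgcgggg
Atp5j, lower by its tested probe, chr16:84834977-84835096, minus strand: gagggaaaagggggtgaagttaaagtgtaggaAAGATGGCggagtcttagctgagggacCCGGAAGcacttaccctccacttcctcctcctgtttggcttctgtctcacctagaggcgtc
Sdhb, lower, chr4:140961151-140961270, plus strand: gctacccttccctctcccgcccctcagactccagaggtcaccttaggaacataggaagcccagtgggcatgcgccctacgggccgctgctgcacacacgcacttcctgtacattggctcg
Cox6b1, higher, chr7:30626115-30626234, minus strand: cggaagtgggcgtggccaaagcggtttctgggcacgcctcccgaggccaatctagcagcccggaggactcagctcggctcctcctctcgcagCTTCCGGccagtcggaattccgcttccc
Uqcr11, higher, chr10:80406822-80406941, minus strand: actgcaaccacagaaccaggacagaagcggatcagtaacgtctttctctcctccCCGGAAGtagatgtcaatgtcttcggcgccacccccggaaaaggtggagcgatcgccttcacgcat
Atp5md, higher, chr19:47090648-47090767, minus strand: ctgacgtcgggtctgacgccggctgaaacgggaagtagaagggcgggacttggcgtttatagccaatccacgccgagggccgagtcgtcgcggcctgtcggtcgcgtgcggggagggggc
The ETS letters stood before 2 genes called lower, Sdhd and Atp5j, and before 2 called higher, Cox6b1 and Uqcr11. These directions are in part uncertain. With each array scaled to the same median Cox6b1 and Uqcr11 were called lower, at -2.09 and -1.78. Uqcr11 held its call in 1 of the 6 fits that left out an array, and an untested probe of Atp5j read higher. Sdhb, the largest fitted decrease among the members, and Atp5md, the largest increase, held none of the 3 motifs in the 250 bases searched. These matches are a description of letters in these windows.

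Fewer of the 38 genes were detected in the Ago2-deficient than in the GV oocytes. The Ago2-deficient oocytes had 17, 26 and 23 detected and the GV oocytes 34, 31 and 33, so that the groups did not overlap. The means were 22.0 ± 4.58 and 32.7 ± 1.53 genes (SD, n = 3; p = 0.1 in a two-sided exact permutation test, which cannot go lower with 3 arrays a group). As a share of the 38 genes this was 44.7% to 68.4% against 81.6% to 89.5%. For all genes with a symbol it was 16.8% to 25.1% against 41.5% to 43.7%, so the GV oocytes had more genes detected over the whole array as well. As a share of its genes, complex II differed most between single mutant oocytes, with 0, 3 and 1 of 4 genes detected against all 4 in each GV oocyte. Complex III had 5 of 7 detected in each Ago2-deficient and 6 of 7 in each GV oocyte. Complex IV had 6, 6 and 7 of 12 against 9, 8 and 8, and complex V had 5, 10 and 8 of 12 against 12, 11 and 12.

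**Figure D1:**
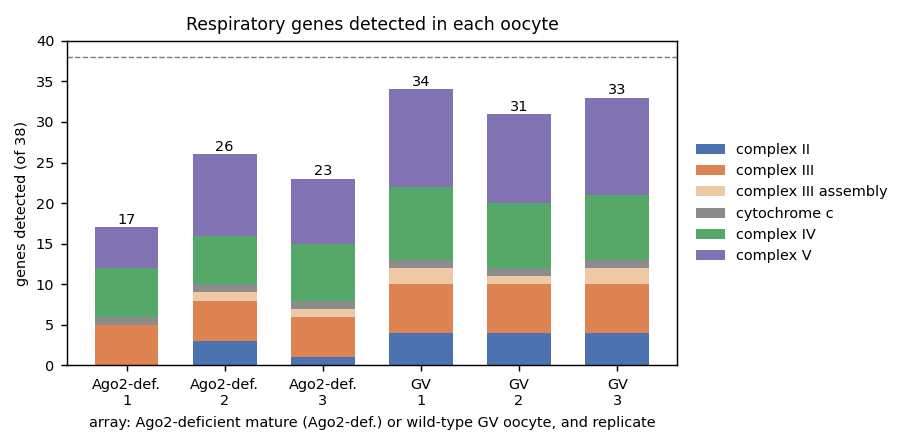
Number of the 38 respiratory genes whose signal-to-noise ratio reached 3 (vertical axis) on each of the 6 arrays, stacked by complex, with the total above each bar and a dashed line at 38. Ago2-deficient replicate 1 had the fewest at 17, and the highest Ago2-deficient array, at 26, lay below the lowest GV array, at 31.

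Of the 38 genes, 16 were detected in all 6 oocytes, 15 in all GV but not all Ago2-deficient oocytes, and none in all Ago2-deficient but not all GV oocytes. The other 7 did not pass the filter, which asked for detection on all 3 arrays of at least 1 group, and were not tested. Among these Uqcrc1, a core protein of complex III, and the complex IV isoforms Cox4i2, Cox7b2 and Cox8b were detected on no array. The complex III assembly factor Uqcc1 was detected in 2 GV oocytes, as was Atp5c1, the central shaft of the ATP synthase, and the muscle isoform Cox7a1 in 1.

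Of the 31 genes tested, 11 were lower and 7 were higher in the Ago2-deficient mature than in the GV oocytes, and 13 were not called. Calls needed an adjusted p from limma below 0.05 together with more than a 2-fold change. Over all 7915 genes tested 44.8% were called lower, 17.4% higher and 62.2% in either direction, so the share of 58.1% among the members was close to that of the array. The groups did not overlap in 21 of the 31 members (67.7%), beside 70.4% of all genes tested. In 14 of them the Ago2-deficient values were the lower and in 7 the higher, beside 50.3% and 20.2% of all genes. The median log2 difference was -1.09 for the members and -1.39 for all genes. Among the 16 members detected on all 6 arrays 3 were lower and 7 higher, beside 20.2% and 43.5% of all such genes, of which 63.8% were called in either direction. Among the 15 that every GV array but not every Ago2-deficient array detected, 8 were lower and none higher, beside 58.8% and 1.24% of all such genes and 60% in either direction.

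Complexes III, IV and V held genes called in both directions, complex II held decreases only among its calls, and the calls depended in part on how the arrays were scaled. After scaling each array to the same median, called common-median scaling here, 24 members were lower and 1, Atp5md, was higher, and with no scaling 21 were lower and again 1 was higher. With cyclic loess 9 were lower and 7 higher. In that order 77.4%, 67.7% and 29% of members were lower, beside 78.6%, 60.4% and 31.8% of all tested genes. Of all tested genes 3.93%, 7.69% and 24.7% were higher. The median of all tested genes was -3.08, -1.98 and -0.36 under these 3 scalings. Relative to that median, each of the 7 members called higher lay above it, by 0.99 to 7.58 on the log2 scale over the 5 scalings. Of these, common-median scaling, no scaling and centring shift all genes of an array alike and give 1 and the same relative value. Each of the 11 called lower lay below it, with the exception of Cox7b, which lay above it on the quantile-normalized values. The 7 called higher were all detected on all 6 arrays. On the quantile-normalized values the median of all genes so detected was 0.83, beside -1.39 over all tested genes.

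**Figure D2:**
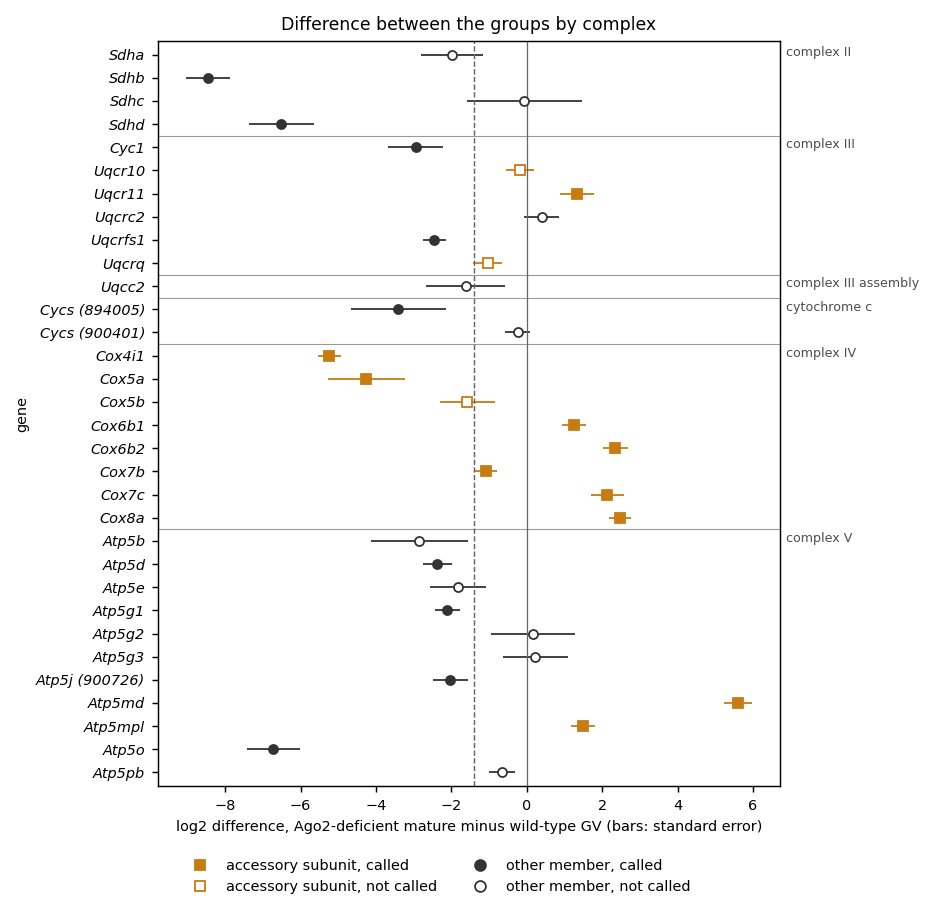
Log2 difference of each tested probe, Ago2-deficient mature minus wild-type GV (horizontal axis, quantile-normalized values, bars are standard errors from limma), by complex. Squares are accessory subunits, circles are other members, filled symbols are called, with a dashed line at -1.39, the median over all genes tested. The filled symbols right of 0 are 7 accessory subunits, of which 6 lie left of 0 under common-median scaling, and Sdhb lies farthest left at -8.46.

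Sorted by role, the 7 genes called higher were small accessory subunits of complexes III, IV and V, and under common-median scaling 6 of them were below 0. This grouping was made after the values were seen and was not tested. The accessory subunits tested numbered 13, and the other 18 members were a mixed remainder. The 18 held the redox subunits, the membrane anchors of complex II, a core protein of complex III, cytochrome c and 1 assembly factor. They also held the catalytic subunit, shaft, ring and stalks of the ATP synthase. Of the 13, 7 were higher and 3 lower, and of the 18 none was higher and 8 were lower. The median log2 differences were 1.25 and -2.00. Over all genes tested 44.8% were lower and 17.4% higher. Detection differed along with role: 11 of the 13 accessory subunits and 5 of the other 18 members were detected on all 6 arrays, and 43.5% of all genes so detected were higher, against 1.24% of those that every GV but not every Ago2-deficient array detected. The part of detection in the contrast between roles was not tested. Under common-median scaling 8 of the 13 and 16 of the 18 were lower, with medians of -2.09 and -4.37. Of all tested genes 78.6% were lower there, with a median of -3.08. After centring on the probes that every array detected 1 of the 18, Atp5g2, was higher, beside 20.1% of all tested genes.

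Complex II held the largest fitted decrease. Sdhb, the iron-sulphur subunit, had log2 signals of 5.71, 7.80 and 6.30 in the Ago2-deficient and of 14.89, 14.95 and 15.35 in the GV oocytes. Every Ago2-deficient value lay far below every GV value, and the probe was detected in 1 Ago2-deficient oocyte. The fitted log2 difference was -8.46 (standard error 0.57, adjusted p = 0.000142), which rests on 2 mutant readings under the detection limit. Leaving out replicate 2, the detected one, removes the highest mutant reading. The bound, defined below for cytochrome c, was then 460-fold, beside 352-fold in the fit with all 3 oocytes. The Sdhb spot of Ago2-deficient replicate 1 carried a flag code of 5000 or more, and with flagged spots missing the difference was -8.01. Sdhd, which anchors the complex in the membrane, read 6.88, 6.61 and 9.85 against 14.53, 14.18 and 14.16. It too was detected in 1 Ago2-deficient oocyte, here replicate 3, and differed by -6.51 (standard error 0.86, adjusted p = 0.000917). Without that oocyte, the highest mutant reading, the bound for Sdhd was 186.8-fold, beside 91.1-fold in the fit with all 3. Without Ago2-deficient replicate 2 the difference was -5.93.

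The other two members of complex II were not called, and their mutant oocytes disagreed with each other. Sdha, the flavoprotein that oxidizes succinate, read 8.02, 10.59 and 7.35 against 10.72, 10.60 and 10.57. Ago2-deficient replicate 2 alone reached the GV level, and the difference was -1.98 (95% interval -3.95 to -0.01, adjusted p = 0.0736). Without replicate 2, Sdha was called lower (adjusted p = 0.00165) with a bound of 7.70-fold, beside 3.94-fold in the fit with all 3. Without replicate 3 its difference was -1.33 (adjusted p = 0.176), and with cyclic loess it was -0.065. Sdhc, the second anchor, read 11.82, 12.83 and 6.62 against 10.41, 10.49 and 10.55, so that 2 Ago2-deficient oocytes lay above and 1 below all GV oocytes. Only replicate 2 passed the detection limit in that group. The difference was -0.06 (95% interval -3.72 to 3.60), and without replicate 3 it was called higher at 1.84 (adjusted p = 0.0101).

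In complex III the redox subunits were lower, while most of the others were not called. Uqcrfs1, the Rieske iron-sulphur protein, read 12.29, 12.56 and 12.59 in the Ago2-deficient and 14.86, 14.78 and 15.16 in the GV oocytes. The groups did not overlap, Ago2-deficient replicate 2 was under the detection limit, and the difference was -2.45 (standard error 0.31, adjusted p = 0.000759). Cyc1, the cytochrome that hands electrons to cytochrome c, read 5.94, 8.73 and 7.17 against 9.68, 10.55 and 10.46. It was detected only in Ago2-deficient replicate 2 of that group and differed by -2.95 (standard error 0.72, adjusted p = 0.0112). The bound for Cyc1 was 11.97-fold without that oocyte, the highest mutant reading, beside 7.73-fold in the fit with all 3. Without Ago2-deficient replicate 1 the difference was -2.28. Its call was lost with cyclic loess (-1.26, adjusted p = 0.0834).

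Uqcr11, a small subunit, was the 1 member of complex III called higher. It read 12.66, 12.25 and 11.34 in the Ago2-deficient and 10.65, 11.13 and 10.46 in the GV oocytes, and its lowest Ago2-deficient value lay just above the highest GV value. The difference of 1.34 (standard error 0.45, adjusted p = 0.0358) held its call in 1 of the 6 fits that left out an array, that without Ago2-deficient replicate 3. It was called lower at -1.78 under common-median scaling. Uqcrc2, a core protein, was not called. It read 13.17, 13.81 and 14.28 against 14.05, 13.13 and 12.89, with overlapping groups and a difference of 0.40 (95% interval -0.73 to 1.52), but was lower at -2.89 under common-median scaling.

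Uqcrq, which lies beside the ubiquinone site, read 14.15, 13.88 and 13.52 against 14.37, 15.35 and 14.93. The groups did not overlap, but the difference of -1.03 (adjusted p = 0.0543) missed the threshold, and leaving out replicate 1 of either group gave a call (-1.19 for the Ago2-deficient, -1.29 for the GV). Uqcr10 was not called at -0.18 (95% interval -1.07 to 0.72). The assembly factor Uqcc2 read 8.55, 12.18 and 12.60 against 12.71, 12.59 and 12.90, so that Ago2-deficient replicate 1 stood alone below the rest, and the difference of -1.62 (adjusted p = 0.213) was not called. It was -0.34 without Ago2-deficient replicate 1 and -2.37 without replicate 3.

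Cytochrome c gave different values by its 2 probes. Probe 900401 of Cycs, the brighter, was detected on every array and read 14.03, 14.48 and 13.85 in the Ago2-deficient and 14.14, 14.56 and 14.38 in the GV oocytes. The groups overlapped, and the difference was -0.24 (95% interval -1.04 to 0.56, adjusted p = 0.559). Probe 894005 read 8.06, 10.37 and 5.02 against 11.55, 11.11 and 10.98, and was detected in no Ago2-deficient oocyte. It was at least 7.84-fold lower (limma adjusted p = 0.04996). The bound sets the GV mean against a limit for the mutant arrays, which is each array's dimmest detected probe or the probe's own value if that is brighter. For a gene undetected in every GV oocyte the groups swap places. Every fold given as at least is such a bound. It holds only for that limit, the quantile-normalized values and all 6 arrays, and makes no allowance for the spread between oocytes. Where the probe's own values are the brighter on every array of that group, the bound is the fitted fold itself. The dimmest detected probes of the mutant arrays lay at 6.13, 6.02 and 6.31. Brighter probes also went undetected, such as Sdhc at 11.82 in Ago2-deficient replicate 1, and a higher limit could give smaller folds. For Cycs probe 894005 the bound was 16.4 without Ago2-deficient replicate 2 and 4.01 without replicate 3. Its call was kept in 1 of the 6 fits that left out an array, that without Ago2-deficient replicate 2. The gene was counted by probe 900401.

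**Figure D3:**
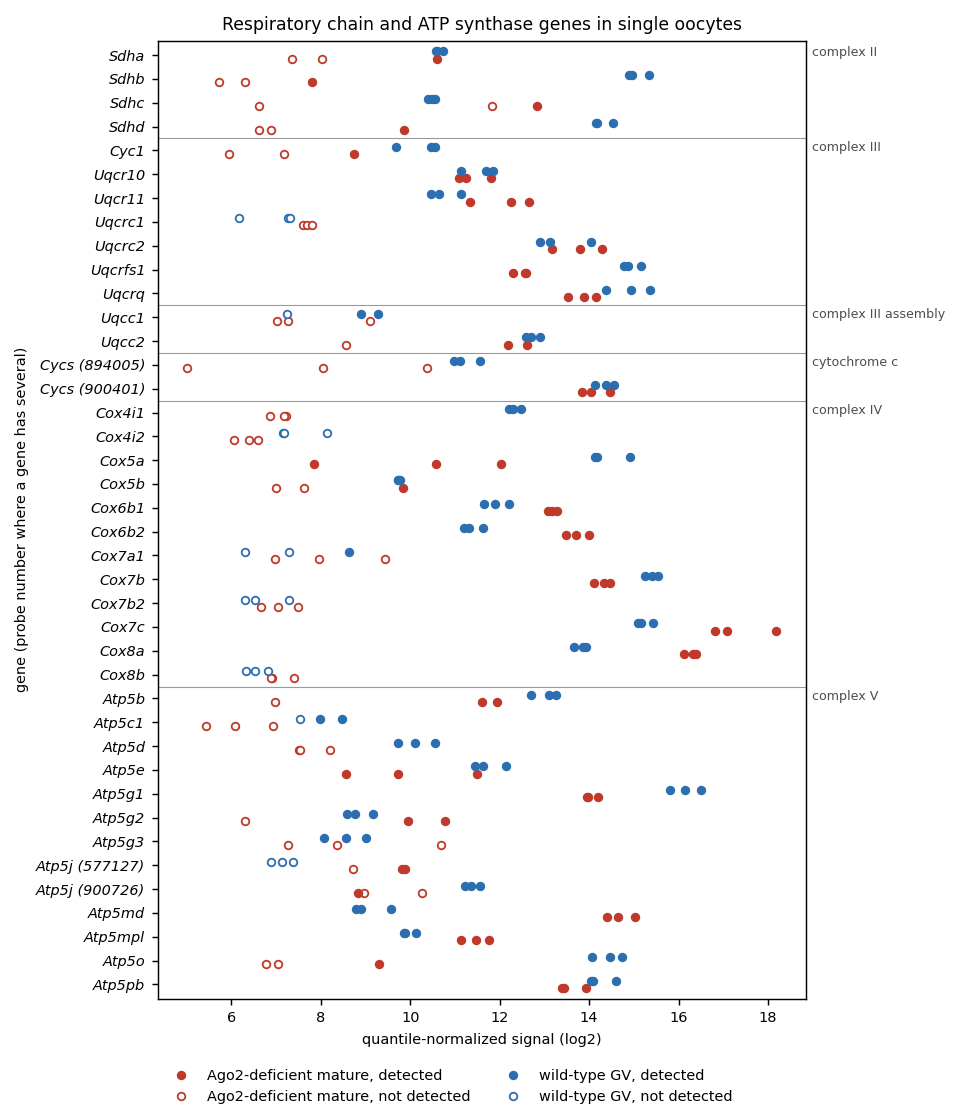
Quantile-normalized log2 signal (horizontal axis) of each of the 40 probes on each of the 6 arrays, by complex, with Ago2-deficient mature oocytes in red, wild-type GV oocytes in blue, filled circles for detected and open circles for undetected spots. Ago2-deficient values of genes such as Sdhc (6.62 to 12.83), Cox5a (7.84 to 12.03) and Atp5b (6.97 to 11.95) spread widely, and among GV oocytes those of Cox7a1 (6.31 to 8.63) and Uqcc1 (7.25 to 9.28), which were not tested, spread most.

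Complex IV had members called in both directions, 3 lower (37.5%) and 4 higher (50%) of 8 tested, beside 44.8% and 17.4% of all genes tested. None was higher under common-median scaling, where 3.93% of all tested genes were. Cox4i1, the regulatory subunit that binds ATP, read 7.22, 6.86 and 7.18 in the Ago2-deficient and 12.48, 12.20 and 12.30 in the GV oocytes. Every GV and no Ago2-deficient oocyte passed the detection limit, and the gene was at least 37.8-fold lower (log2 difference -5.24, standard error 0.31, adjusted p = 0.000114). Cox5a, an early partner of Cox4i1 in assembly, read 7.84, 10.57 and 12.03 against 14.92, 14.17 and 14.12. All Ago2-deficient values lay below the GV values, and the difference of -4.26 (standard error 1.02, adjusted p = 0.0102) became -3.10 without Ago2-deficient replicate 1 and -5.20 without replicate 3. Cox7b read 14.34, 14.47 and 14.11 against 15.53, 15.41 and 15.25, a difference of -1.09 (standard error 0.30, adjusted p = 0.0185). The call of Cox7b was kept in 2 of the 6 fits that left out an array, those without Ago2-deficient replicate 1 or 2. Cox5b, a zinc-binding subunit, read 7.62, 7.0001 and 9.84 against 9.72, 9.72 and 9.76. Its difference of -1.58, or 3.00-fold (adjusted p = 0.0981), missed the threshold. Leaving out Ago2-deficient replicate 3, the detected one, gave a call and a bound of 5.38-fold, while leaving out replicate 2 gave -1.01 and no call. With cyclic loess it was 0.10.

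Of the 4 subunits called higher, Cox8a, one of the smallest subunits of the enzyme, read 16.40, 16.12 and 16.33 in the Ago2-deficient and 13.66, 13.92 and 13.85 in the GV oocytes. The difference was 2.47 (standard error 0.30, adjusted p = 0.000668). Cox7c read 17.08, 18.19 and 16.81 against 15.09, 15.16 and 15.42, a difference of 2.14 (standard error 0.44, adjusted p = 0.00560). Both genes were detected on all arrays and neither overlapped between the groups, but both were below 0 under common-median scaling, at -0.46 and -0.52, and were not called there. Relative to the median of all genes, which was -3.08 on that scale, these were 2.62 and 2.56 higher. That median is over all tested genes, most of which were not detected on every array. On the quantile-normalized values the median of genes detected on all 6 arrays was 0.83.

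Complex IV has isoform pairs, of which 1 form is found in most tissues and the other in few. Cox6b1, the common form of the subunit that bridges the dimer on the outer side, read 13.27, 13.07 and 13.18 in the Ago2-deficient and 11.90, 12.21 and 11.64 in the GV oocytes. Cox6b2, the form known from testis, read 13.71, 13.47 and 14.00 against 11.20, 11.62 and 11.31. Both forms were detected in all 6 oocytes and both were higher in the mutant group, by 1.25 (standard error 0.32, adjusted p = 0.0126) and by 2.35 (standard error 0.33, adjusted p = 0.00108). Common-median scaling turned the sign of both: Cox6b1 was called lower at -2.09, and Cox6b2 was not called at -0.89. Cox6b1 also lost its call without GV replicate 3 (1.12, adjusted p = 0.0603). Cox7a1 read 7.96, 9.43 and 6.97 against 8.63, 6.31 and 7.29 and was detected in GV replicate 1. Cox4i2 of lung, Cox7b2 of testis and Cox8b of muscle were below the detection limit in all 6 oocytes, while their common counterparts Cox4i1, Cox7b and Cox8a were detected in all GV oocytes.

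In complex V 4 of 11 genes tested were lower (36.4%) and 2 higher (18.2%), close to the 44.8% and 17.4% of all genes tested. Atp5o, the stalk subunit that joins the catalytic head to the stator, read 7.05, 9.29 and 6.77 in the Ago2-deficient and 14.74, 14.48 and 14.07 in the GV oocytes. The groups lay far apart, with 1 Ago2-deficient oocyte over the detection limit, and the difference was -6.72 (standard error 0.70, adjusted p = 0.000394). Without that oocyte, replicate 2 and the highest mutant reading, the bound for Atp5o was 183.5-fold, beside 105.8-fold in the fit with all 3. Without Ago2-deficient replicate 3 the difference was -6.26. Atp5d, a subunit of the central shaft, read 8.21, 7.50 and 7.54 against 9.73, 10.11 and 10.54. It was detected in 1 Ago2-deficient oocyte and differed by -2.38 (standard error 0.38, adjusted p = 0.00199), but was not called with cyclic loess (-0.49) or after centring on the probes that every array detected (-1.11).

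Atp5g1, Atp5g2 and Atp5g3 encode the same mature ring protein behind different import sequences. Atp5g1 read 13.98, 14.20 and 13.96 in the Ago2-deficient and 15.80, 16.51 and 16.15 in the GV oocytes, and was lower, with a difference of -2.11 (standard error 0.33, adjusted p = 0.00183). Atp5g2 read 6.31, 9.96 and 10.77 against 9.17, 8.76 and 8.58. Ago2-deficient replicate 1 lay below and the other two above the GV values, and the difference of 0.18 (95% interval -2.50 to 2.85) was called higher at 1.53 without replicate 1 and was -0.30 and -0.70, not called, without replicates 2 and 3. Atp5g3 read 10.68, 7.27 and 8.37 against 9.02, 8.57 and 8.07, was detected in no Ago2-deficient oocyte and was not called. No fold is given for it, since its undetected readings lay on both sides of the GV values and the fitted difference changed sign with the oocyte left out, from -0.73 without Ago2-deficient replicate 1 to 0.98 without replicate 2. Of the 3 genes, Atp5g1 was thus the 1 detected in all 6 oocytes.

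The stalk subunit Atp5j had 2 probes that went opposite ways. Probe 900726 read 10.25, 8.96 and 8.82 in the Ago2-deficient and 11.55, 11.36 and 11.21 in the GV oocytes, and was lower, with a difference of -2.03 (standard error 0.46, adjusted p = 0.00827), though not called with cyclic loess (-0.57). Probe 577127 read 8.72, 9.82 and 9.88 against 7.12, 6.88 and 7.37. It was detected in 2 Ago2-deficient and in no GV oocyte, was at least 5.09-fold higher and was not tested. The direction of Atp5j as a gene is therefore uncertain.

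Atp5md, a small membrane subunit that holds ATP synthase dimers together, showed the largest increase among the members. It read 14.39, 14.64 and 15.02 in the Ago2-deficient and 8.91, 9.57 and 8.79 in the GV oocytes, and was detected on all 6 arrays. The difference was 5.60 (standard error 0.37, adjusted p = 0.000132), a 48.4-fold change, and it was called higher under all 5 scalings, from 3.30 under common-median scaling to 7.22 with cyclic loess. Atp5mpl, another small membrane subunit, read 11.13, 11.47 and 11.76 against 10.13, 9.87 and 9.88, a difference of 1.495 (standard error 0.33, adjusted p = 0.00694). It was not called under common-median scaling (-1.17) or with no scaling (-0.07).

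The catalytic subunit Atp5b read 6.97, 11.60 and 11.95 in the Ago2-deficient and 13.26, 13.10 and 12.70 in the GV oocytes. Its groups did not overlap, but Ago2-deficient replicate 1 stood far below the other two, and the difference of -2.85 (standard error 1.29, adjusted p = 0.0939) was not called. It was called at -1.25 without Ago2-deficient replicate 1 and at -3.73 without replicate 3. Atp5pb, the main stem of the stalk, read 13.93, 13.45 and 13.39 against 14.60, 14.03 and 14.08. The groups lay apart by a narrow gap, and the difference of -0.65 (95% interval -1.48 to 0.18, adjusted p = 0.141) was not called. Atp5e, a shaft subunit, was not called at -1.82 (adjusted p = 0.0694), and was called at -2.60 without Ago2-deficient replicate 3, while it was -1.14 without replicate 1.

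The spread between oocytes is given as a description. Over the 31 tested members the median SD was 0.67 for Ago2-deficient and 0.29 for GV oocytes, beside 0.74 and 0.28 over all tested genes. For the 16 members detected on all 6 arrays the medians were 0.32 and 0.33, and for the other 15 they were 1.49 and 0.21. These 15 passed the filter through the GV group, so the split itself sets steady GV against scattered mutant values. Ago2-deficient replicate 1 was the lowest of its group in 12 of the 31 members, replicate 2 in 8 and replicate 3 in 11.

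**Figure D4:**
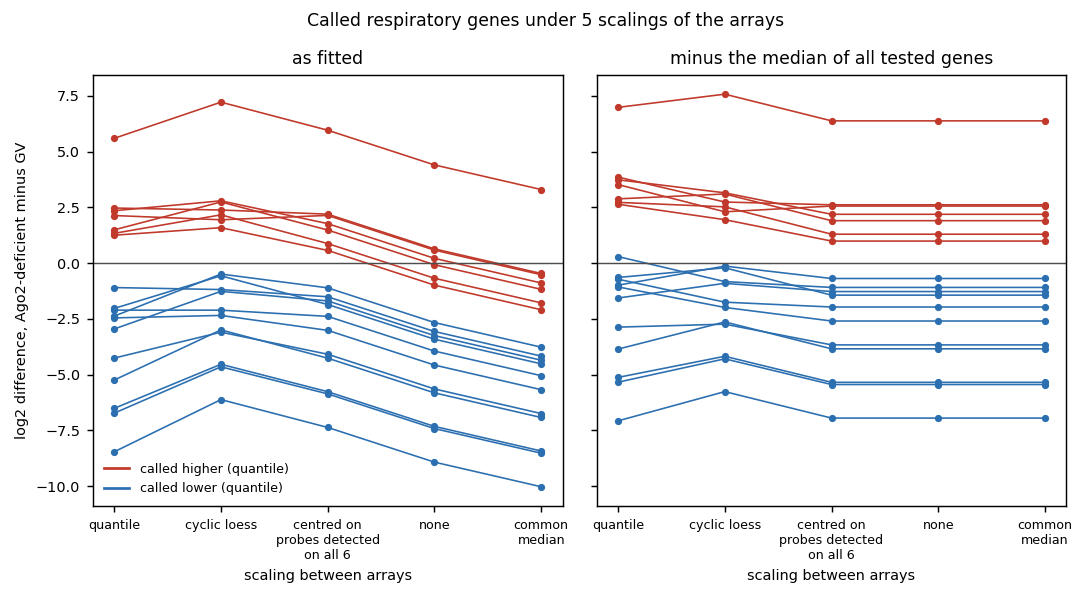
Log2 difference of the 18 called members (vertical axis, Ago2-deficient mature minus GV) under 5 scalings of the arrays (horizontal axis), as fitted (left) and minus the median of all tested genes (right); red lines are members called higher and blue lines members called lower on the quantile-normalized values. As fitted, 6 of the 7 red lines fall below 0 under common-median scaling. Relative to the median of all genes, the red lines stay above 0 under each scaling and the blue lines below it, except for Cox7b on the quantile-normalized values.

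Other genes that serve the chain were also counted. As over the whole array, where 44.8% of genes were lower and 17.4% higher, each list held more lower than higher genes, also under the other scalings. Of 33 assembly factors listed, 22 were on the array and 14 tested, and 9 were lower and 2 higher. Sdhaf2, which attaches the flavin to Sdha, was at least 36.4-fold lower, and Lrpprc, which stabilizes mitochondrial mRNAs, at least 31.4-fold lower, each detected in no Ago2-deficient oocyte. With 1 array left out these bounds ran from 30.5-fold to 45.6-fold and from 25.1-fold to 41.9-fold. The differences were -6.91 and -6.70 under common-median scaling and -2.96 and -2.87 with cyclic loess. Sdhaf4, which assists the joining of Sdha and Sdhb, was higher by 3.44 (standard error 0.45), and Coa3, which assists complex IV assembly, by 1.89. Under common-median scaling Sdhaf4 was not called (0.34) and Coa3 was called lower (-1.33). There 13 of the 14 were lower, beside 78.6% of all tested genes.

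Of 6 tested genes for carriers that move ATP, phosphate and metabolites across the mitochondrial membranes, and for the ATPase inhibitor, 2 were lower and 1 higher. The outer membrane channel genes Vdac3 and Vdac1 went opposite ways. Vdac3 differed by -6.64 (standard error 0.83). Without Ago2-deficient replicate 3, the oocyte that detected Vdac3, its difference was -7.60 and its bound 193.6-fold. The difference of Vdac3 was -6.08 without replicate 1 and -6.23 without replicate 2. Vdac1 was at least 35.7-fold higher with all 6 arrays. With 1 array left out its bound ran from 25.4-fold without Ago2-deficient replicate 3 to 66.0-fold without replicate 1. Both kept their direction and call under all 5 scalings. Slc25a5, an exchanger of ADP and ATP, was at least 16.8-fold lower. Its bound ran from 12.45-fold without Ago2-deficient replicate 2 to 21.8-fold without replicate 3. Its difference was -5.74 under common-median scaling and -2.00 with cyclic loess. Of 6 tested regulators of respiratory and mitochondrial genes 3 were lower and none higher, among them Tfb1m, which methylates mitochondrial ribosomal RNA, at least 11.03-fold, and Polrmt, the mitochondrial RNA polymerase, with a difference of -2.28 (adjusted p = 0.0182). Tfb1m differed by -4.64 under common-median scaling and by -1.90 with cyclic loess. Polrmt lost its call when GV replicate 1 or 3 was left out, and its difference ran from -2.89 without Ago2-deficient replicate 1 to -1.69 without replicate 3. Of 14 coenzyme Q synthesis genes listed, 5 were on the array and 3 tested. These 3 passed the filter through the GV group, and 58.8% of all genes that did so were lower and 1.24% higher. All 3 were lower, with Coq9 at least 22.4-fold and Coq4 at least 19.5-fold, and 2 of the 3 were called with no scaling and after centring. Coq9 and Coq4 were at -6.17 and -5.81 under common-median scaling and at -3.15 and -2.22 with cyclic loess.

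Complex I, the first proton pump of the chain, is given beside the members of complexes II to V. Of 24 complex I subunit genes tested 15 were lower (62.5%) and 4 higher (16.7%), against 35.5% and 22.6% of the 31 members and 44.8% and 17.4% of all genes tested, and of 51 mitochondrial ribosomal protein genes 33 were lower (64.7%) and 3 higher. The complex I list had 8 to 12 of 26 genes detected in an Ago2-deficient and 24 to 26 in a GV oocyte. The difference between these groups of genes was not tested, and its order turned with the setting. After centring on the probes that every array detected, 45.8% of complex I genes, 48.4% of members and 31.3% of all genes were lower, and under common-median scaling 87.5%, 77.4% and 78.6%. Among genes detected on all 6 arrays 1 of 8 complex I genes (12.5%) and 3 of 16 members (18.8%) were lower, beside 20.2% of all such genes. In the same order 50%, 43.8% and 43.5% were higher.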

How the data were processed

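RNA of single oocytes was amplified by the authors, labelled as cRNA and hybridized to Applied Biosystems mouse arrays read by chemiluminescence. The authors deposited, per probe, a signal intensity that is unscaled between arrays. Each carries a quality flag, and the deposited score for signal over noise decides detection here. Values given here are the log2 signals the authors quantile normalized over the 6 arrays. Normalized signals are relative, so they do not give the amount of RNA in an oocyte. The scanner's software was not named in the sources.

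Probes detected (signal-to-noise of at least 3) on all 3 arrays of at least 1 group, 8018 probes of 7915 genes, entered the fit (lmFit, eBayes; limma 3.58.1, R 4.3.3), with Benjamini-Hochberg adjustment over all of them. The brightest tested probe stood for its gene. Standard errors and 95% intervals come from this fit. Symbols come from the platform's annotation, and all 38 gene identifiers were found in the RefSeq table with 0 symbols changed. The fit was tested on simulated data. Members given with every array value are, in each complex, the called genes with the largest differences, the uncalled genes with the highest signal-to-noise ratio, genes with several probes and the isoform genes. In the other lists up to 2 called genes in each direction were named. The members, lists and rules were chosen with earlier results of these data known. Python 3.11.15 and matplotlib 3.10.9 made the plots. The number of arrays limits the precision. Alternatives changed the scaling, filter, detection limit, flagged spots, variance model, threshold, probe rule and pairing, and left out each array in turn.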

Additional observations from a re-analysis of the deposited data

How the results depend on the processing

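Under common-median scaling, which gives each array the same median, 24 members were lower and 1 higher, beside 78.6% and 3.93% of all genes. With no scaling these were 21 and 1, beside 60.4% and 7.69%. Among probes detected on all 6 arrays 5 of 16 members were lower and 7 higher, beside 21.7% and 45.2%. Under the other alternatives with all arrays 9 to 15 were lower and 5 to 7 higher, beside 9.12% to 47.5% and 5.26% to 24.7% of all genes. Leaving out 1 array, with the tested probes kept, gave 10 to 13 lower and 5 to 8 higher, beside 36.7% to 48.2% and 15.3% to 20.8%. The median of the members relative to all tested genes, 0.30, changed sign with the settings, and the cause was not tested. It was -0.76 under common-median scaling, unscaled, and after centring on the probes that every array detected, -0.083 with cyclic loess, -0.99 with no filter on dim probes and -0.72 among probes detected on all 6 arrays. It was -0.023 and -0.13 at a signal-to-noise limit of 5 and of 2, 0.054 with every probe on its own, and 0.070 to 0.50 with 1 array left out. The difference in genes detected per array, -10.7, was -13.0 at a limit of 5, -10.3 at a limit of 2, -11.3 over probes and -12.7 to -8.17 with 1 array left out.

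Single genes turned sign under other scalings as follows. Under common-median scaling Uqcr11 was at -1.78, Uqcrc2 -2.89, Cox6b1 -2.09, Cox6b2 -0.89, Cox7c -0.52, Cox8a -0.46, Atp5mpl -1.17, Atp5g2 -1.18 and Atp5g3 -1.01. With no scaling Uqcr11 was at -0.68, Uqcrc2 -1.79, Cox6b1 -0.98, Atp5mpl -0.070 and Atp5g2 -0.075. Cyclic loess put Cox5b at 0.10, Uqcr10 at 0.60 and Sdhc at 1.37, and centring put Sdhc at 0.10 and Uqcrc2 at -0.23. Sdhc ranged from -1.265 to 1.84 with 1 array left out, the latter without Ago2-deficient replicate 3. With the replicate block, which adds the replicate number to the model, 10 members were lower and 6 higher, beside 42.8% and 16.3% of all genes. Cox7b (adjusted p = 0.0642) and Uqcr11 (adjusted p = 0.0519) lost their calls there. Deviations from the group means correlated at -0.05, 0.03 and -0.03 between arrays of the same number across genes. Between arrays of unlike numbers the values ran from -0.05 to 0.07. Since both lie near 0, they cannot decide whether arrays of the same number were handled together.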
